A study of Mus musculus with 24 samples.

Results

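TRIM genes (tripartite motif genes) encode a large family of proteins that mostly act as ubiquitin ligases. In the table of 54532 mouse genes, 68 carry a Trim symbol with a number. Of these, 55 were protein-coding with a summed count of at least 240 over 24 libraries. These 55 are described here: they were chosen by their summed read counts, so the abundance of the members is a description and not a finding. All 55 passed the filter on low counts. Just inside the threshold were Trim34b with 241 reads, Trim9 with 249 and Trim29 with 255. Just outside were Trim43a with 201 reads, Trim63 with 135 and Trim38 with 27, while Trim31 and Trim61 were listed at 0.

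Bulk RNA sequencing covered 24 mouse pancreatic tumour samples of day 24, with 6 libraries in each of 4 groups. The groups are GEM, IGEL, LIGEL and the PBS (buffered saline) control. The series title names losartan, an angiotensin receptor blocker, and a nanocarrier, but the labels expand none of the 3 treated group names and give no dose, strain, tumour line or age. The labels do not tie each library to an animal of its own. The p-values therefore reflect the spread between libraries, part of which may be technical.

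Each TRIM protein has an N-terminal RING domain (absent in a few), one or more B-box zinc fingers and a coiled coil, followed by a C-terminal part that differs between subfamilies and binds the target. Several members set the strength of the antiviral response: they tag RNA and DNA sensors or the kinases below them with ubiquitin. A subset is itself switched on by interferon. Others repress chromatin, bind microtubules or belong to muscle, red cell precursors or neurons.

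Library totals ranged from 27.1 to 40.5 M reads (M, units of 1e6). The sample titles say muscle while the tissue label says pancreatic tumour, and 15 skeletal muscle markers took at most 0.0423% of any library. PBS replicate 5 stands apart: 20 genes of acinar cells (the enzyme-secreting cells of the pancreas) took 42.2% of its counts, against at most 18.2% in the other 23 libraries. Its TMM scaling factor of 0.548 was the lowest, and it held the lowest value of the 24 libraries for 17 members and the highest for 10. A second set of 6 libraries has count columns named A1 to A3 (GEM replicates 1, 2 and 3, IGEL replicate 1 and LIGEL replicates 1 and 2), while the other 18, with all PBS libraries among them, are named A7 to A24. Columns A2_1 and A2_2 are GEM replicates 2 and 3, and A3_1 and A3_2 are LIGEL replicates 1 and 2. IGEL replicate 1 is A1_1 and GEM replicate 1 is A1_2, while the other 18 columns share no prefix. What the names mean is not stated. Whether columns with a shared prefix come from the same animal is not stated either, and all were counted as separate libraries. Results below are given with all 24 libraries and, where it matters, without PBS replicate 5. In bulk tissue, fewer cells of a type and less RNA per cell cannot be told apart.

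The 55 members together took 0.110% of the reads in PBS replicate 5 and 0.206% to 0.306% in the other 23 libraries. Levels are CPM (read counts scaled to 1e6) of the TMM-scaled library, and levels between genes are compared as CPM per kilobase of the gene model. Trim28, the KAP1 corepressor that silences retroelements with KRAB zinc finger proteins, was the highest with a mean of 93.5 CPM per kb. Next came Trim25, the ligase that acts on the RNA sensor RIG-I, at 45.2 CPM per kb and Trim35 at 39.5 CPM per kb. Trim8 had 38.9 and Trim44, which lacks a RING domain, 34.5 CPM per kb. The lowest were Trim9 at 0.0206 CPM per kb and Trim67 at 0.0647 CPM per kb, both known from neurons, and Trim29 at 0.0861, Trim34b at 0.158 and Trim10 at 0.164 CPM per kb. In CPM, 33 members reached a mean of 10 or more, 12 lay between 1 and 10 and 10 lay under 1. The 5 with the most reads held 44.0% of all member reads, and 6 members had at least 1 library with no read.

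**Figure D1:**
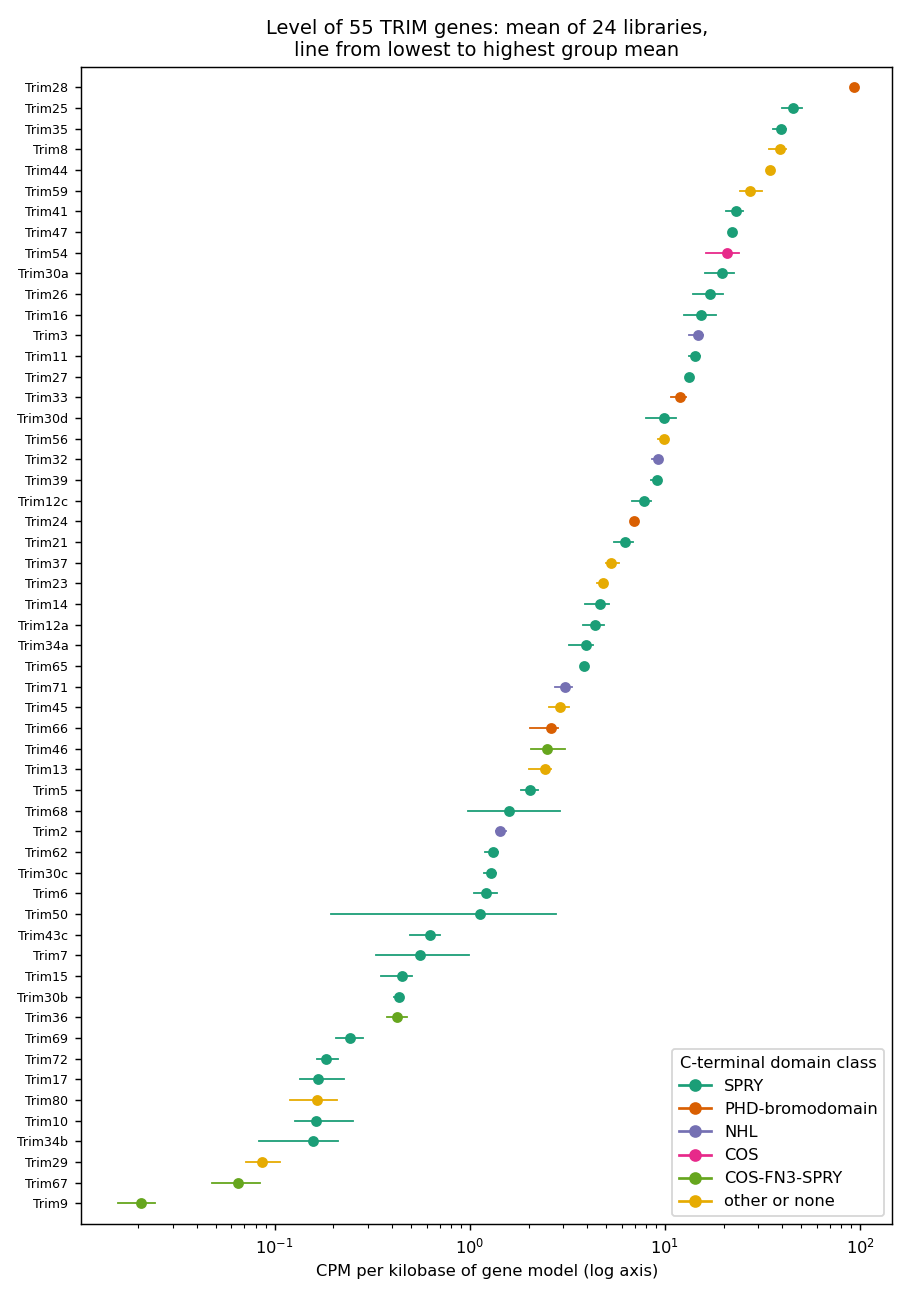
Level of each of the 55 TRIM genes, in CPM per kilobase on a log axis, as the mean of 24 libraries (point) with a line from the lowest to the highest of the 4 group means, coloured by C-terminal domain class. Trim28 is highest at 93.5 and Trim9 lowest at 0.0206 CPM per kb, and the long lines of Trim50, Trim68 and Trim7 show the genes whose group means are farthest apart.

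By the C-terminal part, 32 members belong to the SPRY class, whose levels ranged from 0.158 to 45.2 CPM per kb with a median of 3.88. The 4 members with a PHD finger and a bromodomain (Trim24, Trim28, Trim33 and Trim66) had a median of 9.45 CPM per kb. The 4 NHL repeat members (Trim2, Trim3, Trim32 and Trim71) had a median of 6.13 CPM per kb. The 4 members with a COS box, fibronectin repeat and SPRY domain (Trim9, Trim36, Trim46 and Trim67), a microtubule-binding group, had a median of 0.244 CPM per kb. A group of 10 lies next to each other on chromosome 7 (mm10 positions 104218793 to 104507849) and holds Trim6, Trim34a, Trim5, Trim12a, Trim34b, Trim12c, Trim30b, Trim30c, Trim30a and Trim30d. A second group on chromosome 17 (36258873 to 36910214), near the class I histocompatibility genes, holds 6 Trim genes, of which Trim39, Trim26, Trim15 and Trim10 are members. Reads of near copies such as Trim30a to Trim30d, Trim34a and Trim34b, or Trim12a, Trim12c and Trim5 may have been split between them or lost in counting, so their single values are uncertain. Of the 55 members, 13 overlap another protein-coding gene, and whether counting used the strand is not given.

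Trim26 (ENSMUSG00000024457) lies on chromosome 17 from 36837134 to 36859398 on the plus strand in mm10. It encodes a ubiquitin ligase of the SPRY class that has been described both to remove the transcription factor IRF3 from the nucleus and to support signalling through the kinase TBK1. Trim26 is described in detail because earlier results of these data singled it out, so its tests are not independent evidence. Trim26 had 119, 102, 104, 111, 117 and 101 CPM in GEM replicates 1 to 6. It had 144, 131, 116, 118, 110 and 140 CPM in the IGEL libraries. It had 142, 140, 140, 127, 133 and 133 CPM in the LIGEL libraries, against 92.9, 99.8, 101, 109, 75.0 and 96.9 CPM in the PBS libraries. Every IGEL and every LIGEL library lay above every PBS library, every LIGEL library lay above every GEM library, and the GEM range overlapped both IGEL and PBS.

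The group means of Trim26 were 109 ± 7.67 CPM in GEM, 126 ± 13.6 in IGEL, 136 ± 5.82 in LIGEL and 95.8 ± 11.4 in PBS (SD, n = 6 each). The log2 fold change was 0.50 ± 0.08 (SE) in LIGEL against PBS, with an adjusted p of 0.0831 by edgeR's quasi-likelihood test, above the threshold of 0.05. It was 0.40 ± 0.08 in IGEL against PBS (adjusted p = 0.306) and 0.19 ± 0.08 in GEM against PBS (adjusted p = 0.804). Between the treated groups it was 0.32 ± 0.08 for LIGEL over GEM (adjusted p = 0.999), 0.21 ± 0.08 for IGEL over GEM and 0.10 ± 0.08 for LIGEL over IGEL (both with an adjusted p of 1). By the unadjusted p, Trim26 ranked 1 of 19253 genes for LIGEL over PBS, 2 for IGEL over PBS and 4 for LIGEL over GEM.

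Without PBS replicate 5, Trim26 rose in LIGEL against PBS, with a log2 fold change of 0.44 ± 0.07 and an adjusted p of 0.00837 by edgeR, and ranked 12. In IGEL against PBS the value was then 0.34 ± 0.07 (adjusted p = 0.0640). DESeq2 with all 24 libraries called it higher in both, with adjusted p-values of 0.00017 in LIGEL and 0.0168 in IGEL. Without the 6 libraries of columns A1 to A3 the log2 fold change in LIGEL against PBS was 0.46 ± 0.10 (adjusted p = 0.499). Without those and PBS replicate 5 it was 0.43 ± 0.09 (adjusted p = 0.0886). In the same comparison 7 of 10 epithelial markers were lower in LIGEL with all 24 libraries (median -2.18) and 8 without PBS replicate 5 (median -1.70), with none called. They summed to 954 to 1121 CPM in LIGEL, against 798.5 to 2114 CPM in PBS, and their part in Trim26 was not tested.

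**Figure D2:**
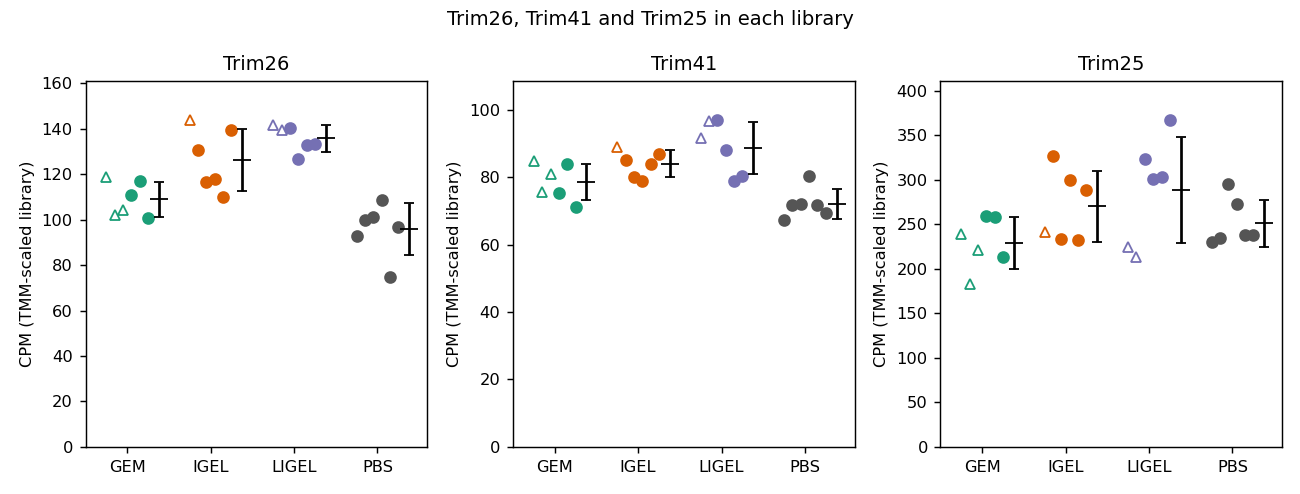
CPM of Trim26, Trim41 and Trim25 in each library of the GEM, IGEL, LIGEL and PBS groups, with the group mean ± SD beside the points; open triangles are libraries of columns A1 to A3. Trim26 lies between 127 and 142 CPM in LIGEL and between 75.0 and 109 CPM in PBS, while the Trim25 ranges of the 4 groups overlap.

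Members were also counted by whether the groups overlap. In LIGEL against PBS, 1 of 55 members lay wholly above (0.649% of all genes tested did) and 0 wholly below (0.369%). For IGEL against PBS the counts were 1 above (0.338%) and 0 below (0.114%). For LIGEL against GEM they were 1 above (0.109%) and 0 below (0.114%). In each of these 3 comparisons the member was Trim26. The counts were 0 both ways in GEM against PBS (0.0727% above and 0.0208% below), in LIGEL against IGEL (0.0416% and 0.0779%) and in IGEL against GEM (0.0571% and 0.0519%).

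Trim41, a SPRY-class ligase known to bind protein kinase C, had the second smallest p in both IGEL and LIGEL against PBS. It had 91.5, 96.5, 96.9, 88.1, 78.8 and 80.3 CPM in LIGEL, against 67.2, 71.7, 72.0, 80.5, 71.9 and 69.2 CPM in PBS. Only PBS replicate 4 reached into the LIGEL range. The log2 fold change in LIGEL against PBS was 0.30 ± 0.07 with an adjusted p of 0.124 by edgeR and 0.00818 by DESeq2. Without PBS replicate 5 it was again 0.30 ± 0.07, and Trim41 then passed as higher (adjusted p = 0.0421). In IGEL against PBS it was 0.22 ± 0.07 (adjusted p = 0.306) and in GEM against PBS 0.12 ± 0.07 (adjusted p = 0.804). Without the libraries of columns A1 to A3 it was 0.24 ± 0.09 in LIGEL against PBS (adjusted p = 0.499). Trim41 overlaps Rack1 on the opposite strand by 31 bases.

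With all 24 libraries edgeR called 0 of 55 members in each of the 6 group comparisons, where 0% of all 19253 genes passed as well. At an unadjusted p under 0.05, 4 members were higher in LIGEL against PBS (6.28% of all genes were) and 3 lower (14.2%). For IGEL against PBS, 3 were higher (5.79%) and 3 lower (9.25%), and for GEM against PBS 1 was higher (1.92%) and 0 lower (2.89%). Between treated groups, LIGEL against GEM had 3 higher (0.831%) and 0 lower (2.33%), and IGEL against GEM had 1 higher (0.878%) and 0 lower (0.706%). LIGEL against IGEL had 0 higher (0.426%) and 0 lower (0.831%).

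By sign alone, 28 of 55 members had a log2 fold change above 0 in LIGEL against PBS (46.5% of all genes did), 31 in IGEL against PBS (47.1%) and 22 in GEM against PBS (46.5%). Between treated groups the counts were 32 for LIGEL over GEM (47.1%), 38 for IGEL over GEM (47.7%) and 23 for LIGEL over IGEL (45.1%). The members' median log2 fold change was 0.01 in LIGEL against PBS, beside -0.03 for all genes, 0.04 in IGEL against PBS, beside -0.02, and -0.07 in GEM against PBS, beside -0.02.

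With PBS replicate 5 left out, 2 members (Trim26 and Trim41) passed as higher in LIGEL against PBS (0.886% of all genes passed), and 8 had an unadjusted p under 0.05 (15.4%). In IGEL against PBS 0 members then passed (0.0922%) and 8 had an unadjusted p under 0.05 (12.2%). In GEM against PBS 0 passed (0%) and 4 had an unadjusted p under 0.05 (5.2%).

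DESeq2 called 5 members in LIGEL against PBS (Trim26, Trim41, Trim68, Trim7 and Trim50; 6.55% of genes) and 1 of the 47 members it tested in IGEL against PBS (0.526%). Voom with quality weights called 4 members in LIGEL against PBS (Trim26, Trim41, Trim59 and Trim37; 3.81% of genes) and 0 in IGEL against PBS (1.98%). In GEM against PBS and between the treated groups both tools called 0 members, and voom called 0.327% of all genes in GEM against PBS.

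**Figure D3:**
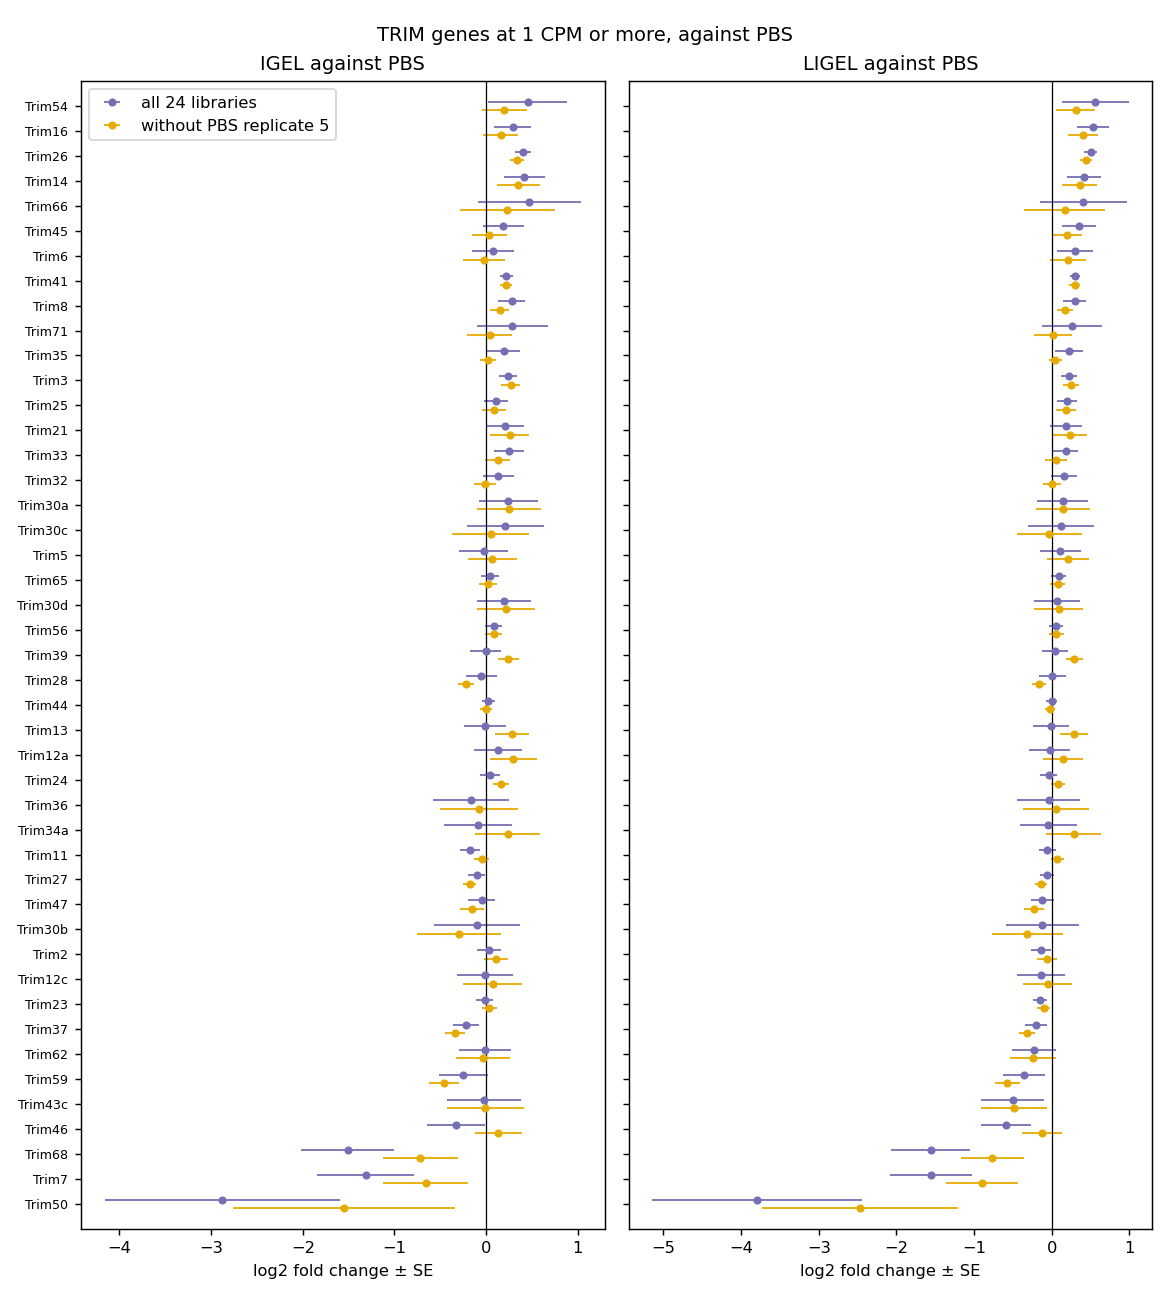
Log2 fold change ± SE of the 45 TRIM genes at a mean of 1 CPM or more in IGEL against PBS (left) and LIGEL against PBS (right), with all 24 libraries and without PBS replicate 5. Trim26 and Trim41 lie above 0 with short bars in both fits, while Trim50, Trim7 and Trim68 lie below 0 with long bars that move toward 0 without that library.

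Between the treated groups the remaining members with the 4 smallest p-values were far from passing. For LIGEL over IGEL they were Trim34b at 0.154 ± 0.181 CPM in LIGEL and 0.389 ± 0.231 CPM in IGEL, Trim23 at 25.8 ± 3.0 and 28.4 ± 1.24 CPM, Trim17 at 0.845 ± 0.281 and 0.531 ± 0.236 CPM, and Trim2 at 26.8 ± 3.69 and 30.1 ± 2.84 CPM (SD, n = 6 each). Their ranges overlapped and each adjusted p by edgeR was 1. For LIGEL over GEM the log2 fold change was 0.17 ± 0.07 for Trim41 and -2.57 ± 1.29 for Trim50 (both with an adjusted p of 0.999). For IGEL over GEM it was 0.24 ± 0.13 for Trim25, 0.16 ± 0.09 for Trim56, which acts on the DNA-sensing adaptor STING, and 0.51 ± 0.30 for Trim30d (each with an adjusted p of 1).

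The 3 lowest log2 fold changes of members in both IGEL and LIGEL against PBS belonged to Trim50, Trim7 and Trim68, all of the SPRY class. Trim50, known from stomach acid-secreting cells, had 20.1 CPM in PBS replicate 5 and 8.04 CPM in PBS replicate 1, the 2 PBS libraries with the largest acinar shares (42.2% and 6.56%). In the other 4 PBS libraries it had 0.164 to 0.726 CPM, and in LIGEL 0 to 1.21 CPM. Its log2 fold change in LIGEL against PBS was -3.80 ± 1.35 (adjusted p = 0.143) and without PBS replicate 5 it was -2.47 ± 1.26.

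Trim7, known to bind glycogenin, had 21.3 CPM in PBS replicate 5 and 13.8 in replicate 1, while the other 22 libraries had 1.01 to 6.50 CPM. Trim68, described as a coactivator of the androgen receptor in human cells, had 31.7 and 14.2 CPM in the same 2 libraries and 1.72 to 7.07 CPM elsewhere. In LIGEL against PBS, Trim7 had a log2 fold change of -1.56 ± 0.53 (adjusted p = 0.136) and Trim68 one of -1.56 ± 0.51 (adjusted p = 0.131). Without PBS replicate 5 the values were -0.90 ± 0.46 for Trim7 and -0.77 ± 0.41 for Trim68. With the acinar score as a covariate they were -0.94 ± 0.47 for Trim7, -0.78 ± 0.37 for Trim68 and -1.71 ± 0.56 for Trim50. The 20 acinar genes were all detected in each group. They summed to 147 to 86774 CPM in LIGEL, 57.0 to 109816 CPM in IGEL and 61.1 to 214447 CPM in GEM, against 3517 to 770854 CPM in PBS. The treated libraries GEM replicate 6 (acinar share 18.2%), IGEL replicate 4 (10.4%) and LIGEL replicate 4 (8.33%) had larger shares than PBS replicate 1. They had 5.99, 1.99 and 1.21 CPM of Trim50, each the highest of its group, and 5.88, 4.80 and 3.47 CPM of Trim7, the second highest of GEM and the highest of IGEL and of LIGEL. The part of the acinar genes in these values was not tested beyond that covariate.

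The same 2 libraries were the lowest of 24 for a second set. Trim54 (MuRF3, known from striated muscle) had 0.811 CPM in PBS replicate 5 and 8.66 CPM in PBS replicate 1, against 20.1 to 40.0 CPM in the remaining 22 libraries. Trim71 (LIN41, an NHL-repeat RNA-binding protein of early embryos) had 1.96 and 8.84 CPM there and 21.4 to 42.8 CPM in the rest. Trim66, the PHD-bromodomain member known from the testis, had 1.82 and 2.59 CPM there, and 9.67 to 50.8 CPM elsewhere. Trim16, which lacks a RING domain, had 30.8 and 34.0 CPM there and 43.6 to 93.3 CPM elsewhere. GEM replicate 6, IGEL replicate 4 and LIGEL replicate 4 had larger acinar shares than PBS replicate 1. Their Trim54 was 26.2, 25.6 and 32.2 CPM and their Trim66 was 42.4, 16.9 and 17.9 CPM. The log2 fold changes in LIGEL against PBS were 0.56 ± 0.43 for Trim54, 0.41 ± 0.56 for Trim66 and 0.53 ± 0.21 for Trim16 (adjusted p = 0.463, 0.703 and 0.165 by edgeR). Without PBS replicate 5 they were 0.30 ± 0.25 for Trim54, 0.17 ± 0.52 for Trim66 and 0.40 ± 0.19 for Trim16.

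**Figure D4:**
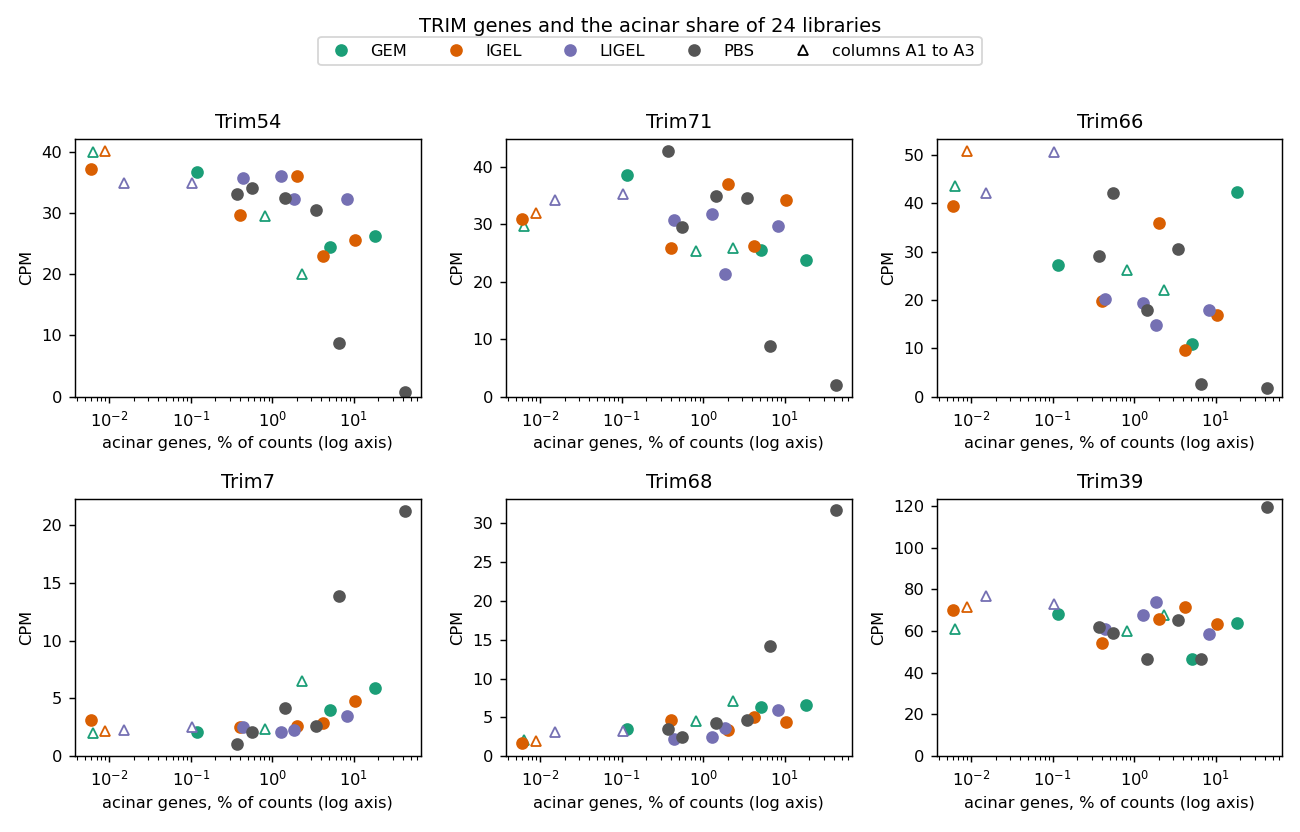
CPM of 6 TRIM genes in each library against the percent of its counts taken by 20 acinar genes (log axis), coloured by group, with open triangles for columns A1 to A3. PBS replicate 5, at an acinar share of 42.2%, and PBS replicate 1, at 6.56%, have the lowest Trim54, Trim71 and Trim66 and the highest Trim7 and Trim68 of the 24 libraries.

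The 15 muscle markers summed to 444 CPM in IGEL replicate 4 and to at most 30.1 CPM in the other 23 libraries, while Trim54 had 25.6 CPM in IGEL replicate 4, inside its range elsewhere. Trim63 (MuRF1), the muscle ligase outside the count threshold, had 3.30 CPM in IGEL replicate 4 and at most 0.176 CPM in any other library. Trim72 (MG53), which repairs muscle membranes, lay between 0.0372 and 0.849 CPM in all 24 libraries, with 0.716 CPM in IGEL replicate 4. Trim72 had a log2 fold change of -0.27 ± 0.58 in LIGEL against PBS and -0.24 ± 0.58 in IGEL against PBS (adjusted p = 0.821 and 0.854 by edgeR).

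Trim10, known from red cell precursors, had 0 to 1.34 CPM over the 24 libraries, and the highest value was in IGEL replicate 1. Its log2 fold change was 0.77 ± 0.78 in IGEL against PBS (adjusted p = 0.62 by edgeR). The 9 erythroid markers in the table summed to 3.10 to 12.7 CPM in IGEL and 1.20 to 100.1 CPM in PBS.

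Among the chromatin members, Trim28 had 336.8 to 399.7 CPM in IGEL and 364.9 to 429.8 CPM in LIGEL, against 153 CPM in PBS replicate 5 and 328 to 505.5 CPM in the other 5 PBS libraries. The log2 fold changes in LIGEL against PBS were 0.01 ± 0.17 for Trim28, -0.04 ± 0.11 for Trim24 and 0.18 ± 0.16 for Trim33, which limits SMAD signalling below the TGF-beta receptor. Without PBS replicate 5 the sign of Trim28 and Trim24 turned, to -0.16 ± 0.09 for Trim28 (adjusted p = 0.390 by edgeR) and 0.08 ± 0.09 for Trim24 (adjusted p = 0.685). Trim28 was then at -0.22 ± 0.09 in IGEL against PBS and at -0.19 ± 0.09 in GEM against PBS, with unadjusted p-values of 0.0216 and 0.048 from edgeR's fit across all genes (adjusted 0.321 and 0.950). With all 24 libraries, no adjusted p of the 4 chromatin members in the comparisons with PBS was under 0.433. Trim59 and Trim37, a centrosome ligase, had values that moved when PBS replicate 5 was left out. Trim59 had 57.8 to 112 CPM in LIGEL and 91.5 to 153 CPM in the 5 remaining PBS libraries, where PBS replicate 5 had 21.9 CPM. Without that library the log2 fold change of Trim59 in LIGEL against PBS was -0.57 ± 0.16 (adjusted p = 0.0941) and that of Trim37 was -0.32 ± 0.10 (adjusted p = 0.149). In the same fit all 20 proliferation genes were lower, with a median of -0.95, and 15 of them passed. These 20 genes summed to 1602 to 2594 CPM in LIGEL, against 2859 to 5158 CPM in the 5 PBS libraries, and their part in Trim59 and Trim37 was not tested. Without the libraries of columns A1 to A3 and PBS replicate 5 together, Trim59 had -0.39 ± 0.16.

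The list used here of members known to be induced by interferon may be incomplete and leaves out Trim26. It holds 13 members: Trim5, Trim6, Trim12a, Trim12c, Trim14, Trim21, Trim25, Trim30a, Trim30b, Trim30c, Trim30d, Trim34a and Trim34b. The group of 10 neighbours on chromosome 7 is among them, with near copies, so counts over the 13 are not counts of independent genes. In LIGEL against PBS, 8 were higher and 5 lower, with a median log2 fold change of 0.11 and none called. In IGEL against PBS 9 were higher and 4 lower with a median of 0.11, again with none called and 0 at an unadjusted p under 0.05 in either comparison. Trim25 was the member with the largest overall level, at 213 to 367 CPM in LIGEL and 183 to 260 CPM in GEM. Its log2 fold change in LIGEL against GEM was 0.33 ± 0.13 (adjusted p = 0.999). Of the 13, 9 were higher in LIGEL against GEM (median 0.27) and 11 in IGEL against GEM (median 0.30), and none passed. Libraries of columns A1 to A3 are GEM replicates 1, 2 and 3, LIGEL replicates 1 and 2 and IGEL replicate 1. All 13 were lower there within groups (median -0.82), and the part of this uneven spread in the comparisons with GEM was not tested. Trim14, which joins the mitochondrial adaptor MAVS, had 0.42 ± 0.22 in LIGEL against PBS (adjusted p = 0.289 by edgeR) and 0.41 ± 0.22 in IGEL against PBS (adjusted p = 0.365).

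A list of 30 other genes induced by type I interferon, such as Rtp4, Oas1a and Xaf1, had a median of 0.00 in LIGEL against PBS, with 16 higher, 14 lower and none called, and without PBS replicate 5 a median of 0.12 with 20 higher. In IGEL against PBS 22 were higher (median 0.22) and in GEM against PBS 26 were lower (median -0.42). Against GEM, 29 were higher in LIGEL (median 0.38) and 30 in IGEL (median 0.52), with none called in these comparisons. The comparisons with GEM are linked to columns A1 to A3, where all 30 were lower within groups (median -1.23), and that part was not tested. Of 18 genes that lead to interferon production, among them Ticam1, Ifnar1 and Nfkb1, 16 were higher and 2 lower in LIGEL against PBS, with a median of 0.19 and none called. In LIGEL against PBS, Ticam1 had 0.65 ± 0.22 (adjusted p = 0.131) and Ifnar1, a chain of the interferon receptor, 0.29 ± 0.10 (adjusted p = 0.136). All 14 T cell markers were higher too, with a median of 0.60 in LIGEL and 0.92 in IGEL against PBS and none called. They summed to 47.5 to 133 CPM in LIGEL and 40.1 to 223 CPM in IGEL, against 33.1 to 150 CPM in PBS, and their part in the values above was not tested. The 13 members in the list of regulators of RNA and DNA sensing, Trim26 among them, had 9 higher and 4 lower with a median of 0.14.

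The interferon-inducible members also differed between libraries within groups. Comparing the 6 libraries of columns A1 to A3 with the rest within groups, all 13 were lower, with a median log2 difference of -0.82 where that of all genes was -0.01. At an unadjusted p under 0.05, 11 of the 13 were lower. Of all 55 members these were the 11 lower ones (8.18% of all genes were lower), and 1, Trim15, was higher (6%). By sign, 26 of 55 members were above 0 (48.3% of all genes). With all 24 libraries 0 of 55 members passed the adjusted threshold, beside 0.0935% of all genes, while DESeq2 called 7 of 50 members it tested (4.32% of genes) and voom 14 (16.2%). Without PBS replicate 5, 4 members fell (Trim30d, Trim21, Trim14 and Trim30a; 2.4% of all genes passed), and 15 had an unadjusted p under 0.05 (21.2%).

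Trim30a, a mouse gene that dampens Toll-like receptor signalling, had 51.4, 49.6 and 61.0 CPM in the A1 to A3 libraries of GEM, 31.1 CPM in that of IGEL, and 53.2 and 45.2 CPM in those of LIGEL. The other 12 libraries of the treated groups had 57.1 to 202 CPM with a median of 103 CPM. The difference was -0.99 ± 0.25 on the log2 scale (adjusted p = 0.0909) and -0.98 ± 0.25 without PBS replicate 5 (adjusted p = 0.0433). Trim21, the cytosolic antibody receptor, had 12.7 to 19.2 CPM in the 6 libraries and 19.1 to 39.7 CPM in the other 12, so that the ranges met only at their ends. Its difference was -0.61 ± 0.15, and -0.60 ± 0.15 without PBS replicate 5 (adjusted p = 0.0331). Trim30d had 16.7 to 30.9 CPM and 26.3 to 88.4 CPM, and without PBS replicate 5 a difference of -0.92 ± 0.22 (adjusted p = 0.0321). Trim14 had 11.5 to 17.9 CPM and 17.1 to 33.6 CPM, and without PBS replicate 5 a difference of -0.63 ± 0.16 (adjusted p = 0.0391).

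Other members of the list had larger or smaller differences that did not pass by edgeR. With all 24 libraries Trim34b had -1.98 ± 0.58, Trim34a -0.95 ± 0.31 and Trim12c -0.82 ± 0.24. Trim12a had -0.61 ± 0.22, Trim5 -0.51 ± 0.23, Trim30c -0.94 ± 0.40, Trim30b -0.86 ± 0.47, Trim6 -0.18 ± 0.21 and Trim25 -0.32 ± 0.10. Trim26 did not follow them, with 102 to 144 CPM in the 6 libraries and 101 to 140 CPM in the other 12, and a difference of 0.07 ± 0.08 (adjusted p = 0.686).

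No PBS library is among the 6, and other lists moved with this split. The 30 interferon genes were all lower, with a median of -1.23 and 6 called, and summed to 762 to 1205 CPM in the 6 libraries, against 1212 to 4418 CPM in the other 18. All 20 proliferation genes were lower (median -0.54, 6 of them at an unadjusted p under 0.05). The 10 epithelial markers had 6 lower and 4 higher (median -1.46), and summed to 1097 to 1411 CPM in the 6 libraries and 578 to 2114 CPM in the other 18. All 20 acinar genes were lower too, with a median of -5.03, and summed to 61.1 to 21278 CPM and 57.0 to 770854 CPM. With the acinar score as a covariate the differences were smaller, at -0.70 ± 0.25 for Trim30a, -0.39 ± 0.15 for Trim21 and -0.43 ± 0.21 for Trim12c (adjusted p = 0.784, 0.850 and 0.874 by edgeR). The part of tissue makeup and of whatever the column names stand for was not tested further.

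Each member was then set against the score of the 30 interferon genes (their mean log2 CPM), both centred on the group mean, over 24 libraries. With p from 100000 permutations within groups, adjusted over 55 members, 16 members passed with a positive and 8 with a negative Pearson correlation. Many genes varied with this score: with the same test adjusted over 19223 genes outside it, 15 members passed with a positive r (17.1% of all genes did) and 8 with a negative r (14.7%). The negative count is near that of all genes. Of the 13 interferon-inducible members 11 passed under either adjustment, with r between 0.25 and 0.95 over all 13. Near copies on chromosome 7 are among them, so these are not 11 independent results. The strongest were Trim30a with r = 0.95 and Spearman's rho of 0.94, Trim21 with 0.94 and 0.92, Trim30d with 0.93 and 0.91 and Trim34a with 0.92 and 0.92 (each permutation p = 1e-05, the smallest these permutations give, adjusted 6.11e-05). The 2 libraries farthest from the median score were IGEL replicates 1 and 2. Without them r was 0.935 for Trim30a, 0.912 for Trim21 and 0.893 for Trim30d. In that setting 14 members passed in all, and the share of all genes was not computed.

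Within the 18 libraries of columns A7 to A24, 11 members passed with a positive and 6 with a negative r. Of the 13 interferon-inducible members 8 were among them. The share of all genes was not computed for these 18 libraries, so the counts cannot be set against it. There Trim30a had r = 0.92 and Trim21 r = 0.90. Trim25 had r = 0.66 over 24 libraries and 0.39 within the 18 (adjusted permutation p = 0.374). Trim26 had r = -0.32 and rho = -0.29 (adjusted permutation p = 0.221), and Trim41 r = -0.31. Over 24 libraries negative values passed for Trim66, Trim16, Trim15, Trim8, Trim32, Trim45, Trim54 and Trim67. Trim66 had r = -0.69 over 24 and -0.72 within the 18 libraries, and Trim16 -0.56 and -0.79. Within the 18, Trim15, Trim8 and Trim32 did not pass (adjusted permutation p = 0.211, 0.169 and 0.111), while Trim33 did (0.0485). Without the 2 farthest libraries only Trim66 and Trim16 of them passed, and Trim8 came next (adjusted permutation p = 0.0701). Trim50 (r = 0.57), Trim68 (0.46) and Trim7 (0.35), the members highest in PBS replicates 1 and 5, were among the positive ones over 24 libraries. Within the 18, Trim68 passed (adjusted permutation p = 0.0292), and Trim50 and Trim7 did not (0.0829 and 0.107). The acinar share differed between libraries, from 0.00595% in IGEL replicate 6 to 42.2% in PBS replicate 5, and the part of tissue makeup in these correlations was not tested. PBS replicates 1 and 5, low in Trim66 and Trim16, are among the points. Without PBS replicate 5, r was -0.74 for Trim66.

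**Figure D5:**
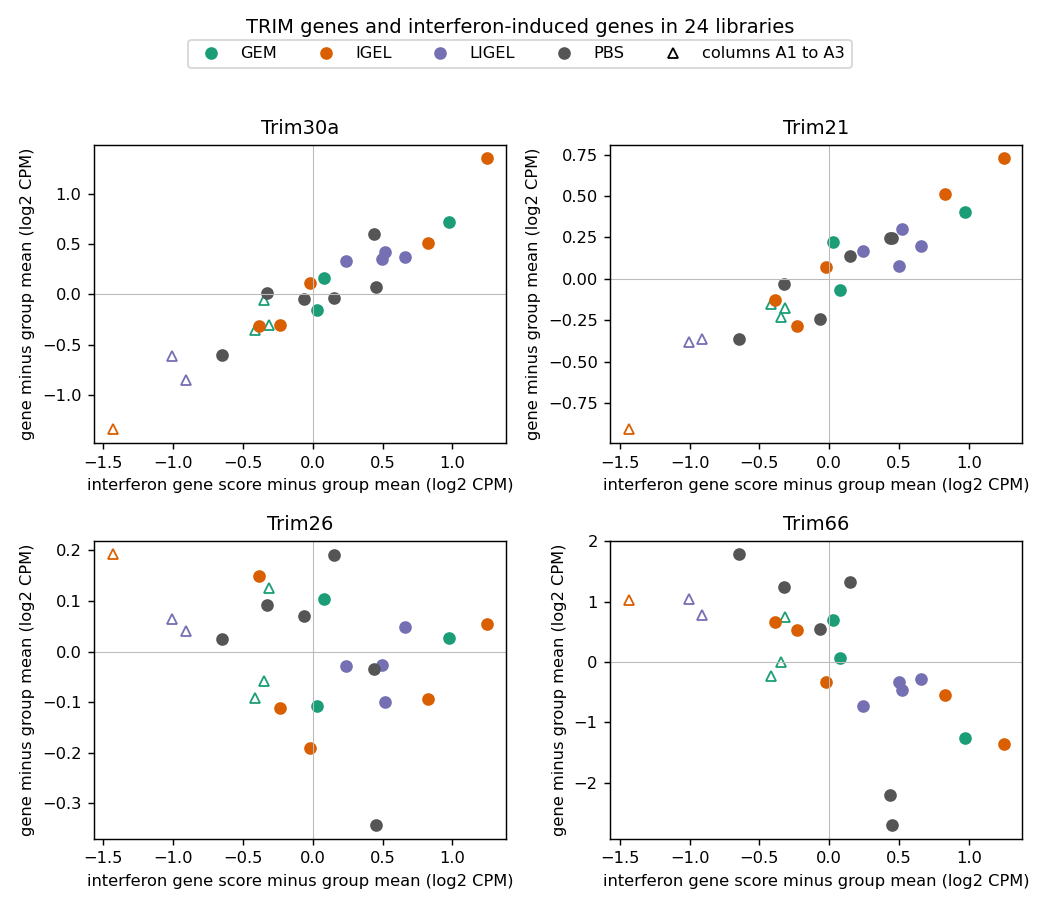
Log2 CPM of Trim30a, Trim21, Trim26 and Trim66 in each library against the mean log2 CPM of 30 interferon-induced genes, both minus the group mean, with open triangles for columns A1 to A3. Trim30a (r = 0.95) and Trim21 (r = 0.94) rise with the score, Trim66 (r = -0.69) falls, and Trim26 (r = -0.32) shows no relation that passed.

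The promoters of these genes were read to see which hold the letters of an interferon-stimulated response element, the DNA element bound by interferon regulatory factors. The motif searched was GAAA, any 2 bases, GAAA, on both strands with overlaps allowed, from 250 bases before to 50 after each RefSeq start (GRCm38.p6), where 42 of the 55 members had an entry. It occurred in 3.99% of 27025 genes with an entry, in 9 of the 42 members (21.4%) and in 11 of 20 genes of the interferon list (55%). Of the interferon-inducible members it occurred in 7 of 12 (58.3%), namely Trim5, Trim12a, Trim12c, Trim21, Trim30a, Trim30d and Trim34a. Of the 30 other members it occurred in 2 (6.67%), Trim2 and Trim26. Around the motif Trim5, Trim12a and Trim12c are near copies, as are Trim30a and Trim30d, so the 7 inducible members are not 7 separate occurrences. The motif TTCNNNGAA, the letters of a STAT site, occurred in 4 of 42 members and in 9.55% of all genes with an entry.

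The 4 members that varied most with the interferon score are shown here with Trim5, Trim12c and Trim26. Each is read 5′ to 3′ on the gene's strand, with the motif (or its reverse complement) in capitals.
Trim30a, chr7:104465194-104465274, minus strand: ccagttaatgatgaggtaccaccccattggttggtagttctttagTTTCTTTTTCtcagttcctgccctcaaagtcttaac
Trim30d, chr7:104507850-104507935, minus strand: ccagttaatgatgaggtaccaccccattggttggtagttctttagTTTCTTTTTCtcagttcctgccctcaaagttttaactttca
Trim5, chr7:104288107-104288200, minus strand: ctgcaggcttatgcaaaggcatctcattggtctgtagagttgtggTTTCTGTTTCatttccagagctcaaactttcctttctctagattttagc
Trim12c, chr7:104353350-104353423, minus strand: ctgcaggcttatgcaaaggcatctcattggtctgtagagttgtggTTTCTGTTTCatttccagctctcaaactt
Trim34a, chr7:104244457-104244486, plus strand: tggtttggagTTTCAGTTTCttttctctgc
Trim21, chr7:102565447-102565476, minus strand: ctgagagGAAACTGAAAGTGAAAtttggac
Trim26, chr17:36836941-36837046, plus strand: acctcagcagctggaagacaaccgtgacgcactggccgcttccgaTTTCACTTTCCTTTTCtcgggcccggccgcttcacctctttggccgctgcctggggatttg

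Around the motif Trim30d and the Trim30a start shown had the same base at 99 of 100 positions, and Trim5 and Trim12c at 93 of 100. Trim12a had the same base as Trim5 at 85 of 85 positions and as Trim12c at 82 of 85. A second RefSeq start of Trim30a also holds the motif and had the same base as Trim30d at 64 of 93. Trim21 and Trim26 each hold the motif at 2 overlapping places. In Trim26 they begin at -160 and -154 from the RefSeq start, and in Trim21 at 13 and 19 bases after it. The level of Trim26 varied with r = -0.32 against the interferon score where that of Trim21 varied with r = 0.94. A match of letters is a description of the window and does not show binding.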

How the data were processed

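Per the labels' protocols, tumours were frozen on dry ice, RNA was extracted with Trizol and Illumina libraries were made. According to the submitters' processing notes, HISAT2, Subread's featureCounts and the mm10 build were used. No version, annotation release or strandedness is given in those sources. The deposited table holds the authors' counts, unnormalized, beside each gene's coordinates and length. All 55 member identifiers are in GENCODE M21, 53 with identical coordinates.

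Counts were tested with edgeR 4.0.16 (R 4.3.3) quasi-likelihood F tests in 1 fit of all 24 libraries. TMM factors and a low-count filter (minimum count 10, minimum total 15) left 19253 genes, or 19525 without PBS replicate 5. P-values were adjusted by Benjamini-Hochberg over all tested genes, with a threshold of 0.05. SE is the absolute log2 fold change over the square root of F. The split by column names used the same fit with 1 more term. The procedure was tested on simulated data. Log2 CPM used a prior count of 2. DESeq2 1.42.0, limma 3.58.1 voom, RLE factors, library totals, no filter, a replicate block, the acinar covariate, the compared samples alone and leaving out libraries were alternatives. The settings that combine columns A1 to A3 with PBS replicate 5 were added after seeing the data.

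The members, gene lists and tests were chosen with earlier results of these data known. Named are Trim26, members called in any fit, the 4 smallest p per comparison, the interferon-inducible, muscle, erythroid and chromatin members, the 5 highest and lowest per length and those next to the threshold. Trim16, Trim36, Trim39, Trim59, Trim62 and Trim71 were named after their values were seen, as were Trim37 and the single libraries singled out. Replicate numbers were not used as pairs in the main fit. The deviations of same-numbered libraries correlated between -0.59 and 0.71 (median -0.06), over 0.1 in 14 of 36 pairs. Those of libraries with other numbers correlated between -0.69 and 0.69 (median 0.02), over 0.1 in 71 of 180 pairs.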

Additional observations from a re-analysis of the deposited data

Results flagged for a closer look

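Within a group of 6 libraries, a single library lay far from the other 5 for 17 of the 220 combinations of member and group tested (Dixon's test at the 95% level). Chance flags about 1 in 20 groups, and the members share libraries. PBS replicate 5, the acinar-rich library, accounts for 6 of the 17. It was high for Trim39 (119.8 CPM), Trim24 (83.9 CPM), Trim11 (76.3 CPM) and Trim13 (8.44 CPM), and low for Trim47 (39.4 CPM) and Trim37 (23.7 CPM). In the other PBS libraries, Trim41 was high in replicate 4 (80.5 CPM), and Trim72 (0.848 CPM) and Trim80 (1.45 CPM) were high in replicate 3.

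In GEM, Trim45 was high in replicate 1 (27.9 CPM), Trim34a in replicate 4 (12.6 CPM) and Trim34b in replicate 5 (0.676 CPM). In IGEL, Trim7 was high in replicate 4 (4.80 CPM). In LIGEL, Trim7 (3.47 CPM) and Trim80 (0.915 CPM) were high in replicate 4, Trim15 was high in replicate 1 (1.74 CPM), and Trim65 was low in replicate 2 (20.8 CPM). The values under 2 CPM rest on few reads.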

How the results depend on the processing

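The log2 fold change of Trim26 was positive in all 6 group comparisons under each of 36 alternative settings. It ranged from 0.41 to 0.61 in LIGEL against PBS, past the threshold in 7 settings (lowest and highest adjusted p 0.00017 and 0.499), and from 0.25 to 0.48 in IGEL against PBS, past it in 2. LIGEL against PBS had 0 members called with all libraries (0% of all genes), 5 with DESeq2 (6.55%) and 4 with voom (3.81%). The count was 1 with the acinar covariate and 1 with a term for columns A1 to A3 and PBS replicate 5 left out. Leaving out 1 library at a time it ranged from 0 to 2. It was 1 without GEM replicate 4, 1 without PBS replicate 4 and 2 without PBS replicate 5 (0.886% of all genes). In IGEL against PBS it was 1 with DESeq2 (0.526% of all genes) and 1 with that term and PBS replicate 5 left out. For columns A1 to A3 against the rest it was 7 with DESeq2 (4.32% of all genes) and 14 with voom (16.2%). It was 1 with the replicate block and 0 to 4 when 1 library was left out. Those counts were 1 without GEM replicate 5, 1 without GEM replicate 6, 2 without IGEL replicate 2 and 4 without PBS replicate 5 (2.4%). The share of all genes under the other settings is not given here, so those counts are not read as a result about the members. The replicate block called 0 members in the 6 group comparisons. The labels do not say that same-numbered libraries belong together. For the correlations 24 members passed, and 14 without the 2 farthest libraries, where no share of all genes was computed. None of the 21 log2 fold changes recomputed under every setting reversed. Beyond these, leaving out PBS replicate 5 turned the sign of 8 of 55 members in LIGEL against PBS (Trim24 and Trim28 among them). It turned 9 in IGEL against PBS and 11 in GEM against PBS. The share of all genes whose sign turned was not computed, so these counts are not a trait of the family. The cause of these differences was not tested. Library totals in place of TMM factors moved the median of all genes in LIGEL against PBS to 0.10, where it was -0.03. Members under 1 CPM are limited by depth, and PBS holds no library of columns A1 to A3, so the PBS comparisons and that split are linked. The treated groups hold unequal numbers of these libraries, so the comparisons between treated groups are linked to the split as well.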

Other observations

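Trim39 had 119.8 CPM in PBS replicate 5 and 46.4 to 76.6 CPM in the other 23 libraries. Without that library its log2 fold change in LIGEL against PBS was 0.29 ± 0.11 (adjusted p = 0.227 by edgeR), where with all 24 it was 0.04 ± 0.17. Trim39 and Trim26 lie in the same group of genes on chromosome 17. Trim36, of the microtubule-binding class, and Trim62, of the SPRY class, were 2 members outside the interferon-inducible list that passed with the interferon score (r = 0.66 and r = 0.61 over 24 libraries, adjusted permutation p = 0.0011 and 0.00481). Within the 18 libraries of columns A7 to A24, r was 0.68 for Trim36 and 0.62 for Trim62. With the adjustment over all genes, 17.1% of all genes passed with a positive r over 24 libraries, so these 2 are not read as a result about the family.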
